A study of Mus musculus with 6 samples.

Results

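The aminoacyl-tRNA synthetase genes of mouse liver were examined 24 hours after acute CCl4 injury. Members were the genes whose symbol is 1 amino acid letter followed by "ars" or "ars2", plus *Eprs*, *Farsa* and *Farsb*. This gave 37 of the 24346 genes in the table, 20 for enzymes of the cytosol and 17 for enzymes of mitochondria, the latter ending in 2. All 37 averaged 0.5 FPKM or more over the 6 libraries (FPKM are fragments scaled to transcript length and library size) and entered the comparison. The samples were whole livers of male C57/BL6 mice aged 8 weeks that had received 0.6 μl CCl4 per g body weight in sunflower oil by intraperitoneal injection. The 3 controls, labelled wt, were med23-floxed mice without a deletion (med23f/f), and the other 3 livers were labelled med23 ko, which the study calls med23Δli. The study describes the latter as a hepatocyte-specific deletion, made by a cross of the floxed mice with *Albumin*-cre mice. Which cells of these livers had lost the gene was not measured here. Each library came from 1 liver, and every liver of both groups had received CCl4, so an effect of CCl4 itself was not measured.

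Aminoacyl-tRNA synthetases join each amino acid to its tRNA and so set the meaning of the genetic code. Most amino acids have a separate enzyme for the cytosol and for the mitochondrial matrix, both encoded in the nucleus, whereas *Gars* (glycine) and *Kars* (lysine) each encode both forms. *Eprs* encodes a fused enzyme for glutamate and proline, and the cytosolic phenylalanine enzyme is built from the α subunit of *Farsa* and the β subunit of *Farsb*. Hepatocytes make albumin and most other plasma proteins and depend on a large supply of charged tRNA. Many cytosolic synthetase genes are known targets of ATF4, the transcription factor of the integrated stress response, which binds with C/EBP proteins to a composite element that can be written TGATGNAA.

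That element was searched on both strands in the 250 bases before the start site, in sequences taken from RefSeq (GRCm38.p6, the assembly of mm10). A promoter was matched for 27 of the 37 members, 13 cytosolic and 14 mitochondrial, and not for *Cars*, *Hars*, *Lars*, *Nars*, *Rars*, *Vars*, *Wars*, *Hars2*, *Pars2* and 1 other. TGATGNAA or its reverse complement TTNCATCA was present in 3 members, all of them cytosolic, among them *Gars* and *Tars*, in 0 of the 14 mitochondrial ones, and in 3.45% of all 32851 promoters of this length. The windows of 30 bases around the matches of *Gars* and *Tars* are shown 5′ to 3′ on the strand of the gene because they hold the element the genes share, with the matched letters in capitals.
Gars (plus strand, chr6:55037960-55037989): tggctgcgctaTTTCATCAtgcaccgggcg
Tars (minus strand, chr15:11399659-11399688): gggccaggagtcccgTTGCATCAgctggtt
The match began 30 bases before the RefSeq start in *Gars* and 15 in *Tars*, and 7 bases at the end of the *Tars* window lie in an exon of GENCODE M21, whose start is further upstream. Of these genes, *Gars* is the one whose expression passed the test below, and its whole upstream window, with 24 CpG dinucleotides and 62.4% G and C, is therefore given with the match in capitals.
Gars promoter (plus strand, chr6:55037751-55038000): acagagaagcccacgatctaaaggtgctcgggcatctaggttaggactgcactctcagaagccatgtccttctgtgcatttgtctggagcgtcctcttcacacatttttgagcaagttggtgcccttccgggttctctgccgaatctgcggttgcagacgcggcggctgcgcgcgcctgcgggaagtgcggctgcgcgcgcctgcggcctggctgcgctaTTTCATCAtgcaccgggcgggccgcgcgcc
The E-box CACGTG was found in 3 members, among them *Farsb* and *Iars*, and in 6.02% of all promoters. These matches describe letters only, and binding was not measured.

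The sample labels were examined first. *Med23* had 3.42, 2.97 and 4.14 FPKM in the controls and 3.40, 3.40 and 2.91 FPKM in livers labelled med23 ko (log2 fold change −0.11, adjusted p = 0.685, limma), so its level does not tell the groups apart. The hepatocyte marker *Alb* stood between 12624 and 22376 FPKM in every library. None of the 7 hepatocyte markers in the table passed the limma test, with 3 of them lower at an unadjusted p under 0.05. All 7 endothelial markers were lower in the livers labelled med23 ko (median log2 fold change −1.03), none was at 0 in any group, and their summed level was 83.8 to 121 FPKM in the controls and 44.9 to 48.1 FPKM in the others. In whole liver, fewer cells of a type and less RNA per cell cannot be told apart, and the part of these markers in the results below was not tested. Of the 7, 4 passed when any 1 of the 3 livers labelled med23 ko was omitted. Of the stellate cell and fibroblast markers 1 of 8 was lower (*Des*), and 0 of 9 macrophage, 0 of 5 neutrophil and 0 of 5 cholangiocyte markers tested passed by limma, with 2, 3 and 0 lower at an unadjusted p under 0.05. Replicate 2 of the livers labelled med23 ko held high values of fat genes such as *Adipoq* and *Cfd*, and the 8 adipocyte markers summed to 23.8 to 214 FPKM in that group against 53.4 to 67.1 FPKM in the controls. The study reports a median number of reads per sample, but not the reads of each library. FPKM keep no read counts, so the depth of each library is unknown and the spread between livers is the only error given.

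Cytosolic synthetase transcripts were the more abundant. The mean over the 6 libraries had a median of 42.3 FPKM over the 20 cytosolic genes and of 7.65 FPKM over the 17 mitochondrial genes. *Nars*, the asparagine enzyme, was the highest cytosolic gene, with 144, 114 and 132 FPKM in the controls and 185, 163 and 181 FPKM in livers labelled med23 ko. *Aars*, the alanine enzyme, followed with 127, 111 and 114 FPKM against 143, 138 and 144 FPKM. In both genes every liver labelled med23 ko lay above every control, yet neither difference passed the limma test (log2 fold change 0.45 and 0.27, adjusted p = 0.0545 and 0.141).

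At the low end of the cytosolic genes, the leucine enzyme *Lars* had 22.9, 24.6 and 19.4 FPKM in the controls and 21.8, 19.6 and 24.0 FPKM in the other livers. *Farsb* had 29.5, 21.7 and 19.2 FPKM against 29.4, 25.7 and 32.6 FPKM. Both overlapped between groups. Among the mitochondrial genes the methionine enzyme *Mars2* was lowest, with 1.56, 1.64 and 1.28 FPKM in the controls and 1.81, 1.43 and 1.26 FPKM in the other group. The tryptophan enzyme *Wars2* had 1.84, 1.13 and 2.08 FPKM against 1.91, 1.64 and 1.79 FPKM, again with overlap. The phenylalanine enzyme *Fars2* was the second highest mitochondrial gene, at 23.5, 20.9 and 23.6 FPKM in the controls and 17.1, 20.01 and 18.5 FPKM in the other livers, without overlap but short of the threshold (adjusted p = 0.137, limma).

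**Figure D1:**
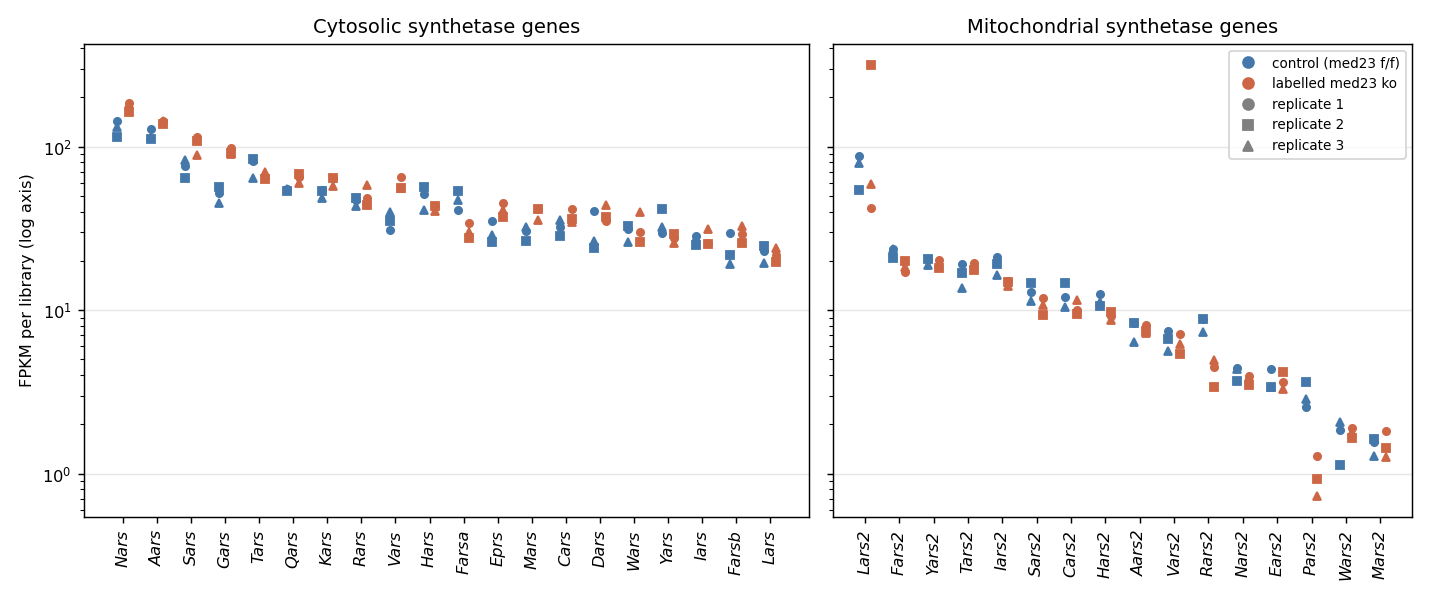
FPKM of 36 of the 37 synthetase genes in each of the 6 libraries on a log axis, with cytosolic genes on the left and mitochondrial genes on the right, each ordered by mean (blue, controls; orange, livers labelled med23 ko; symbols, replicates). The median of the gene means was 42.3 FPKM for all 20 cytosolic genes and 7.65 FPKM for all 17 mitochondrial ones, and *Lars2* of replicate 2 labelled med23 ko stands alone at 313 FPKM.

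To ask whether the synthetase genes differed between genotypes, log2(FPKM + 0.1) was compared with limma over the 11956 genes that averaged 0.5 FPKM or more, and a gene was called at an adjusted p under 0.05. Of the 20 cytosolic genes, 2 rose in the livers labelled med23 ko (*Gars* and *Vars*) and 1 fell (*Farsa*). Of the 17 mitochondrial genes, 2 fell (*Pars2* and *Rars2*) and 0 rose, also at an unadjusted p under 0.05 (0 genes), by limma. Over all genes tested, 11.6% rose and 9.48% fell. The shares of called members were 10% higher and 5.0% lower for cytosolic genes, and 0% higher and 11.8% lower for mitochondrial genes. These shares are near the background apart from the 0% of mitochondrial genes called higher, and each rests on 2 genes or fewer. At more than 2-fold, *Pars2* was the one member called, with 4.45% of all genes called higher and 3.45% lower by that rule.

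Counted over all members, passed or not, the signs of the log2 fold changes were distributed differently in the 2 compartments. The log2 fold change was above 0 in 15 of 20 cytosolic genes (median 0.25, from −0.62 to 0.86) and in 5 of 17 mitochondrial genes (median −0.13, from −1.55 to 0.35), beside 52.2% and a median of 0.02 over all genes tested. Every liver labelled med23 ko lay above every control in 9 cytosolic genes (*Aars*, *Eprs*, *Gars*, *Kars*, *Mars*, *Nars*, *Qars*, *Sars* and *Vars*; 45.0%) and in 0 mitochondrial genes, and 23.3% of all genes tested did so. Every liver labelled med23 ko lay below every control in 2 cytosolic genes (*Farsa* and *Yars*; 10%) and in 5 mitochondrial genes (*Fars2*, *Hars2*, *Iars2*, *Pars2* and *Rars2*; 29.4%), and 20.4% of all genes did so. Whether the compartments differ as groups was not tested. With each library rescaled, the cytosolic median was 0.22 after centring and 0.15 after quantile normalization, and the mitochondrial median was −0.16 and −0.18. Without control replicate 1 the mitochondrial median was −0.04.

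**Figure D2:**
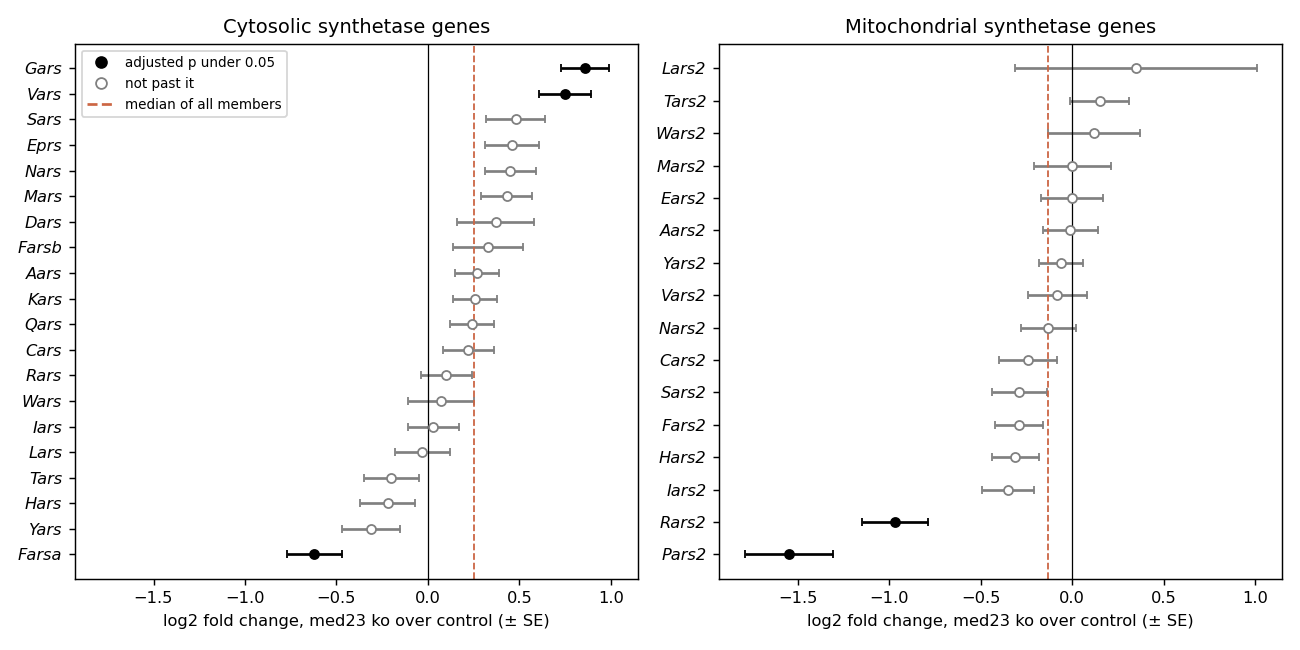
Log2 fold change of livers labelled med23 ko over controls for 36 synthetase genes, with the standard error from limma as bars (filled points, adjusted p under 0.05; dashed line, median of all members of the compartment). *Gars* and *Vars* stand at the upper end and *Farsa* at the lower end of the cytosolic genes, *Pars2* and *Rars2* lie lowest among the mitochondrial genes, and *Lars2* has by far the widest bar (standard error 0.66).

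Summed FPKM showed the size of the pool. The 20 cytosolic genes summed to 1039.6, 981 and 959 FPKM in the controls (993 ± 41.5, SD, n = 3) and to 1225, 1144 and 1185 FPKM in livers labelled med23 ko (1185 ± 40.1, SD, n = 3), without overlap. The 16 mitochondrial genes other than *Lars2* summed to 166, 159 and 142 FPKM (156 ± 12.5) and to 139, 129.6 and 134 FPKM (134 ± 4.67), also without overlap and in the opposite order. With *Lars2* the mitochondrial sums overlapped, since replicate 2 labelled med23 ko reached 443 FPKM. All 37 genes together made up 0.183% to 0.202% of the summed FPKM in the controls and 0.231% to 0.244% in the other livers. Without *Lars2* these shares were 0.175% to 0.189% and 0.196% to 0.224%, with replicate 2 labelled med23 ko at the lower end of its group.

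*Gars* (ENSMUSG00000029777.10, chromosome 6 of mm10, 55038007 to 55079500, plus strand), which serves glycine in both compartments, rose the most of the members. It had 51.8, 56.7 and 45.4 FPKM in the controls and 97.5, 91.2 and 90.5 FPKM in livers labelled med23 ko. All 3 of the latter were clear of the controls, and the means of 51.3 ± 5.67 and 93.1 ± 3.85 FPKM (SD, n = 3 each) differed by 0.86 ± 0.13 on the log2 scale (SE, adjusted p = 0.00648, limma). *Kars*, the other gene that serves both compartments, had 54.0, 53.2 and 48.15 FPKM in the controls against 64.3, 64.6 and 57.4 FPKM, also without overlap but with an adjusted p of 0.161 from limma (log2 fold change 0.26).

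*Vars* (ENSMUSG00000007029.16, chromosome 17, 35000987 to 35016322, plus strand) charges tRNA with valine in the cytosol. Its values were 31.0, 34.9 and 39.6 FPKM in the controls and 64.8, 56.2 and 55.7 FPKM in livers labelled med23 ko. The groups did not overlap and differed by 0.75 ± 0.14 on the log2 scale (SE, adjusted p = 0.0124, limma), or by 0.68 (adjusted p = 0.0646) without replicate 1 labelled med23 ko. Its mitochondrial partner *Vars2* had 7.42, 6.63 and 5.65 FPKM against 7.11, 5.38 and 6.17 FPKM, which overlapped (log2 fold change −0.08, adjusted p = 0.758, limma).

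Next to these, 4 cytosolic genes stood just short of the threshold with a log2 fold change between 0.43 and 0.48 and no overlap between groups. These were *Nars* with an adjusted p of 0.0545, *Mars* (methionine) with 0.0589, *Sars* (serine) with 0.0631 and *Eprs* with 0.0691 by limma. *Eprs* passed without control replicate 1 (adjusted p = 0.0432), as did *Dars*, the aspartate enzyme (0.0446), and *Mars* and *Sars* passed without control replicate 3 (0.0436 and 0.0440), as did the mitochondrial isoleucine gene *Iars2* in the lower direction (0.0377). Of the 37 members, 11 overlap another coding gene on the genome. Among them are *Mars* (*Ddit3*), *Iars2* (*Rab3gap2*), *Farsb* (*Sgpp2*), *Fars2* (*Lyrm4* and *Nrn1*), *Yars* (*C77080*) and *Wars* (*Wdr25*). *Cars2* (*Naxd*) and *Ears2* (*Ubfd1*) also do, *Hars* and *Hars2* overlap each other, and *Aars* overlaps *Exosc6* on the same strand. Whether reads were counted by strand is not given in the sources used here, so the values of these 11 members are uncertain to that extent.

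Of the 2 subunits of the cytosolic phenylalanine enzyme, *Farsa* fell and *Farsb* did not pass the test. *Farsa* (ENSMUSG00000003808.18, chromosome 8, 84856989 to 84869257, plus strand) had 40.8, 53.5 and 46.9 FPKM in the controls and 34.3, 27.4 and 29.9 FPKM in livers labelled med23 ko, all below the controls. Its difference on the log2 scale was −0.62 ± 0.15 (SE, adjusted p = 0.0275, limma), and that of *Farsb*, whose values are given above, was 0.33 (adjusted p = 0.227). The call of *Farsa* was lost without control replicate 2 (adjusted p = 0.0585), and without replicate 1, 2 or 3 labelled med23 ko (0.0644, 0.108 and 0.0866), with the log2 fold change between −0.71 and −0.52. As a comparison chosen after the values were seen, the ratio of *Farsa* to *Farsb* was 1.38, 2.46 and 2.44 in the controls and 1.17, 1.07 and 0.917 in the other livers. The 3 lower ratios were all in the livers labelled med23 ko, with a log2 difference of −0.95 and p = 0.1 by an exact two-sided permutation test, the smallest p that 3 against 3 can give.

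*Pars2* (ENSMUSG00000043572.7, chromosome 4, 106651069 to 106655282, plus strand), the mitochondrial proline enzyme, fell the most. It had 2.56, 3.66 and 2.87 FPKM in the controls and 1.29, 0.932 and 0.734 FPKM in livers labelled med23 ko. All 3 of the latter were well below the lowest control, and the difference on the log2 scale was −1.55 ± 0.24 (SE, adjusted p = 0.00711, limma). With a pseudocount of 1 in place of 0.1 it was −1.02. Its cytosolic partner *Eprs* had 35.1, 26.2 and 28.7 FPKM against 45.1, 36.8 and 41.2 FPKM, a shift in the other direction that did not pass the test, as given above.

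*Rars2* (ENSMUSG00000028292.14, chromosome 4, 34614957 to 34660167, plus strand), the mitochondrial arginine enzyme, had 8.86, 8.83 and 7.38 FPKM in the controls and 4.47, 3.38 and 4.95 FPKM in livers labelled med23 ko. The groups were well apart, by −0.97 ± 0.18 on the log2 scale (SE, adjusted p = 0.0110, limma). The cytosolic arginine gene *Rars* had 47.4, 48.8 and 43.3 FPKM against 48.7, 43.8 and 58.1 FPKM, which overlapped (log2 fold change 0.10, adjusted p = 0.637, limma). *Hars* and *Hars2*, the histidine enzymes, lie on opposite strands with starts 197 bases apart and had log2 fold changes of −0.22 and −0.31, neither past the threshold (adjusted p = 0.327 and 0.123, limma).

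*Lars2* (ENSMUSG00000035202.8), the mitochondrial leucine enzyme, was the exception in level. It had 87.0, 54.5 and 78.9 FPKM in the controls and 41.9, 313 and 58.8 FPKM in livers labelled med23 ko, so that its mean of 106 FPKM was set largely by 1 liver. The log2 fold change of 0.35 (adjusted p = 0.731, limma) turned to −0.54 (adjusted p = 0.218) when replicate 2 labelled med23 ko was left out. *Rn45s*, the precursor of ribosomal RNA, had 323, 448 and 528 FPKM in the controls and 402, 2309 and 595 FPKM in the other group, with its highest value in the same liver. Both belong to 22 genes tested that were more than 2 times as high in that library as in every other one, 3.60 times for *Lars2* and 3.88 times for *Rn45s*, and each of the other 5 libraries had 13 to 62 such genes of its own. The part of that library's ribosomal RNA or fat genes in the *Lars2* value was not tested.

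**Figure D3:**
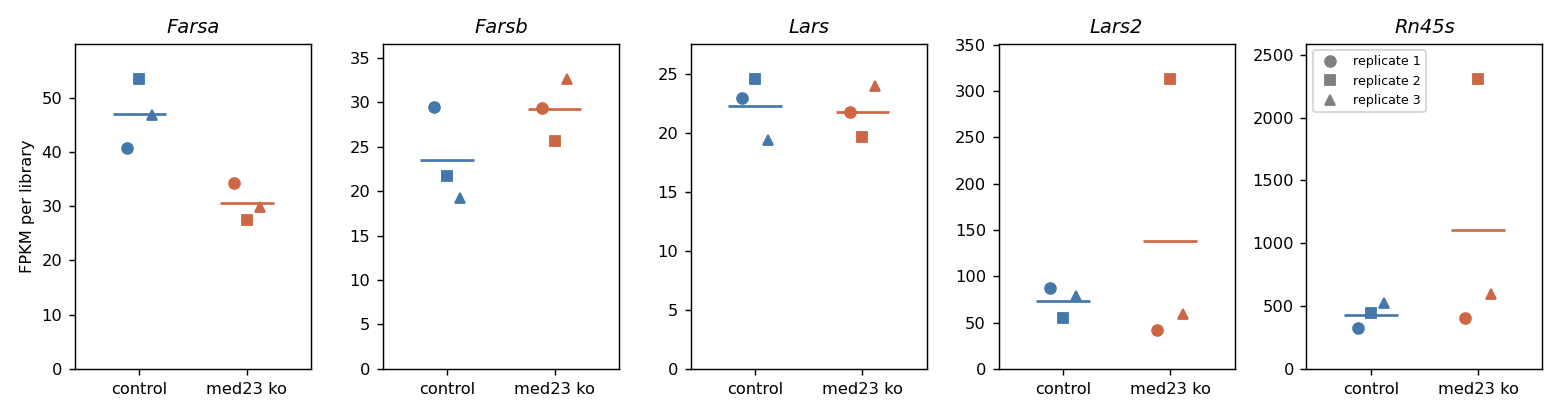
FPKM per library of *Farsa*, *Farsb*, *Lars*, *Lars2* and *Rn45s*, with a line at each group mean and axes from 0 (blue, controls; orange, livers labelled med23 ko; symbols, replicates). *Farsa* is lower and *Farsb* overlaps, and replicate 2 labelled med23 ko is far above the other 5 libraries in *Lars2* (313 FPKM) and *Rn45s* (2309 FPKM) but not in *Lars* (19.6 FPKM).

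The balance between compartments was followed, for the amino acids with a gene of either kind, as the ratio of the cytosolic to the mitochondrial gene within a library, in 18 pairs. Glycine, lysine and glutamine have no such pair, and phenylalanine has 2. The cytosolic gene was higher in all 6 libraries in 16 pairs, the others being *Lars*/*Lars2* (0 libraries) and *Farsb*/*Fars2* (5 libraries). Every ratio of the livers labelled med23 ko was above every control in 9 pairs and below in 1, and 8 pairs overlapped. No such share was computed over other pairs of genes, single genes separate in this way in 23.3% (above) and 20.4% (below) of all genes tested, and *Eprs* and *Fars2* each enter 2 of the pairs. The smallest exact permutation p with 3 livers a group is 0.1, so no single pair could pass 0.05.

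The difference was largest for proline. *Eprs*/*Pars2* was 13.7, 7.17 and 9.97 in the controls and 35.0, 39.5 and 56.2 in the livers labelled med23 ko, a log2 difference of 2.0 (1.47 with a pseudocount of 1). *Rars*/*Rars2* was 5.35, 5.52 and 5.87 against 10.9, 12.97 and 11.7, a log2 difference of 1.07. In both pairs the mitochondrial member was the one that passed the test. *Nars*/*Nars2* was 32.6, 31.0 and 30.3 against 47.1, 46.6 and 46.8, a log2 difference of 0.58 with little spread within either group. The threonine ratio *Tars*/*Tars2* was the 1 with all livers labelled med23 ko below the controls, at 3.38, 3.61 and 3.88 against 4.22, 4.97 and 4.71, although neither gene passed the test alone. Over all pairs the median log2 difference was 0.44, with 13 above 0 and 5 below.

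**Figure D4:**
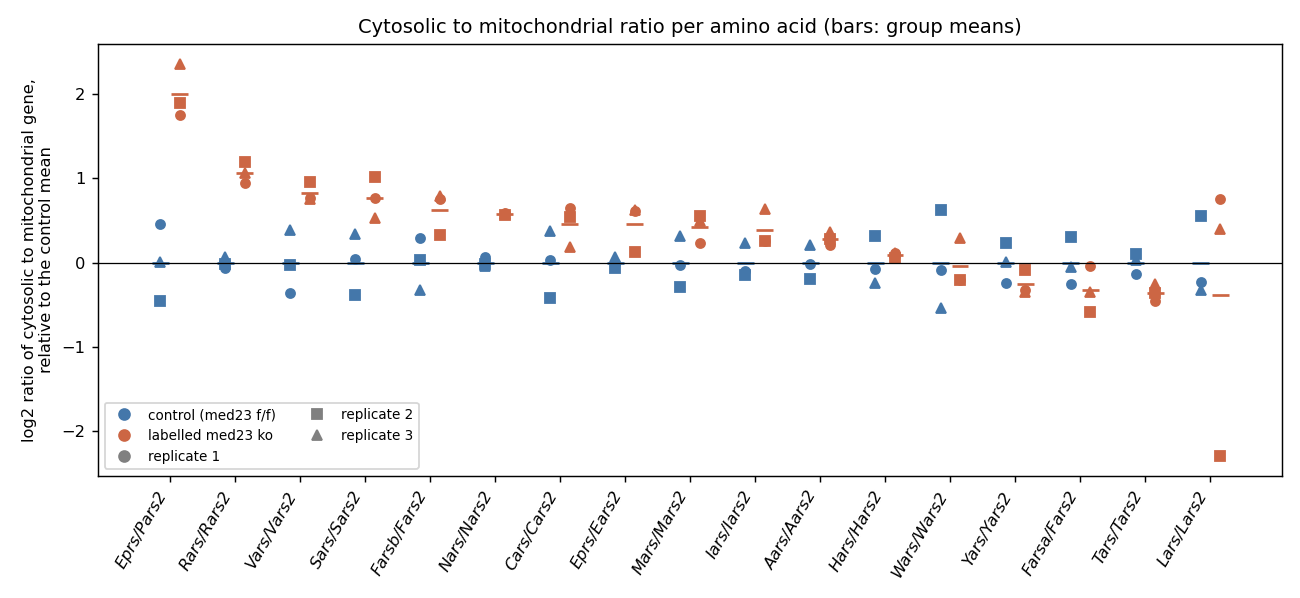
Log2 ratio of the cytosolic to the mitochondrial gene per library, relative to the mean of the controls, for 17 of the 18 pairs ordered by the difference between groups (blue, controls; orange, livers labelled med23 ko; short lines, group means). *Eprs*/*Pars2* (difference 2.0) and *Rars*/*Rars2* (1.07) lie at the left, *Tars*/*Tars2* is the pair with all 3 livers below the controls, and *Lars*/*Lars2* is spread by replicate 2.

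Among cytosolic enzymes, 8 are held together in the multisynthetase complex by 3 scaffold proteins. Of the 8 enzymes (*Dars*, *Eprs*, *Iars*, *Kars*, *Lars*, *Mars*, *Qars* and *Rars*), 0 passed the limma test, 2 were higher at an unadjusted p under 0.05, 2 passed without control replicate 1 and 1 without control replicate 3, and 7 had a log2 fold change above 0 (median 0.25). The 12 cytosolic genes outside the complex had the same median of 0.25 and held all 3 cytosolic genes that passed. The scaffold genes did not pass either. Their log2 fold changes by limma were 0.26 for *Aimp1* (adjusted p = 0.360), 0.09 for *Aimp2* (adjusted p = 0.714) and −0.18 for *Eef1e1* (adjusted p = 0.361). By the 2 structural classes of synthetases, the cytosolic median was 0.16 for class I (with *Eprs* counted there, although its proline part is class II) and 0.30 for class II, and the mitochondrial median was −0.06 and −0.22.

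Other genes that feed or use charged tRNA were mixed. Of 12 related enzymes, 3 rose and 2 fell, beside 11.6% higher and 9.48% lower over all genes tested. With no filter on low values, and with the replicate block, 1 was called higher and 1 lower. With 1 library left out, 0 to 2 were called higher and 1 to 3 lower. *Xpot*, which exports tRNA from the nucleus, rose from 19.5, 17.4 and 21.1 FPKM to 31.8, 27.9 and 34.3 FPKM (log2 fold change 0.69, adjusted p = 0.0148, limma). The last steps of selenocysteine tRNA synthesis went opposite ways, with *Sepsecs* higher (log2 fold change 0.68, adjusted p = 0.0345) and *Pstk*, the kinase that acts before it, lower (−0.53, adjusted p = 0.0350). *Xpot* lost its call without replicate 1 or 3 labelled med23 ko (adjusted p = 0.0689 and 0.0602), and *Sepsecs* and *Pstk* kept theirs, of the fits with 1 library left out, only in the one without control replicate 3 (0.0693 to 0.118 and 0.0706 to 0.132 in the others).

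Mitochondria have no glutamine enzyme of their own and make glutamine tRNA with an amidotransferase of 3 subunits. *Qrsl1*, its catalytic subunit, had 6.38, 9.55 and 6.63 FPKM in the controls and 3.24, 3.30 and 3.80 FPKM in livers labelled med23 ko (log2 fold change −1.08, adjusted p = 0.00897, limma). *Gatc*, another subunit, had 9.17, 7.80 and 8.30 FPKM against 12, 10.6 and 12.5 FPKM (log2 fold change 0.47, adjusted p = 0.0429), and *Gatb* did not pass (0.29, adjusted p = 0.304). *Qrsl1* passed with any 1 library left out, whereas *Gatc* lost its call with any 1 left out (adjusted p = 0.0505 to 0.155). As with *Farsa* and *Farsb*, genes for subunits of 1 enzyme had log2 fold changes of opposite sign. Both comparisons were chosen after the values were seen, and of these genes only *Qrsl1* passed with any 1 library left out.

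Of 7 genes listed as cytosolic elongation factors, *Eef1e1* of the scaffolds among them, 1 rose (14.3%) and 0 fell. The shares over all genes tested were 11.6% and 9.48%. *Eef1b2*, an exchange factor of elongation factor 1, rose from 225, 241 and 229.7 FPKM to 430.0, 424 and 394 FPKM (log2 fold change 0.84, adjusted p = 0.00565, limma). The median log2 fold change of the 7 was 0.40, with 6 above 0, and 4 were higher at an unadjusted p under 0.05. Every liver labelled med23 ko lay above every control in 4 of them (57.1%) and below in 1 (14.3%). The shares of all genes that did so were 23.3% and 20.4%. Of 8 mitochondrial translation factors 1 rose and 2 fell, beside the same 11.6% higher and 9.48% lower over all genes tested. Whether these counts differ from those shares was not tested, and with the replicate block both counts were 0. The initiation factors *Mtif3* and *Mtif2* fell (log2 fold change −0.69 and −0.64, adjusted p = 0.0159 and 0.0481), and the ribosome recycling factor *Mrrf* rose (0.57, adjusted p = 0.0292). *Eef1b2* passed with any 1 library left out, and without any 1 of the 3 livers labelled med23 ko none of the 3 mitochondrial factors did (adjusted p = 0.0561 to 0.150). Control livers mattered too, since *Mtif2* was lost without control replicate 1 or 2 (0.0820 and 0.0656) and *Mrrf* without control replicate 2 (0.0563).

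The integrated stress response list, whose targets include synthetase genes, had 13 of its 26 tested genes higher and 0 lower by limma. Also 0 were lower at an unadjusted p under 0.05, and the median log2 fold change was 0.86. Among all genes tested, 11.6% were called higher and 9.48% lower. The other 13 genes of the list were not called, *Ddit3*, *Trib3* and *Chac1* among them. The log2 fold change was above 0 in 23 genes and below 0 in 3 (*Fgf21* −0.89, *Ddit4* −0.43 and *Atf5* −0.04). The count of genes called higher was 8 without replicate 1 labelled med23 ko. The list was chosen with earlier results of these data known. Its largest rises were *Aldh1l2*, an enzyme of mitochondrial folate metabolism (log2 fold change 4.18, adjusted p = 0.00275), the stress protein gene *Nupr1* (3.29, adjusted p = 0.000771), the cystine transporter *Slc7a11* (3.13, adjusted p = 0.00780) and the lipoprotein receptor *Vldlr* (2.55, adjusted p = 0.0170). *Aldh1l2*, *Slc7a11* and *Vldlr* were low in the controls, and with a pseudocount of 1 their log2 fold changes were 3.45, 2.03 and 1.63. *Vldlr* lost its call without control replicate 1 (adjusted p = 0.0534) and without replicate 1 or 3 labelled med23 ko (0.0660 and 0.0670). *Asns*, asparagine synthetase, rose from 22.7, 28.7 and 20.1 FPKM to 57.1, 58.6 and 49.1 FPKM (log2 fold change 1.21, adjusted p = 0.00445). The transcript of *Atf4* itself, which is regulated mainly in translation, had 148, 152 and 153 FPKM against 167, 138 and 149 FPKM (log2 fold change 0.00, adjusted p = 0.990).

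*Wars*, the tryptophan enzyme, is known as a target of interferon-γ. Its log2 fold change was 0.07 (adjusted p = 0.797, limma). Of the 11 interferon-γ response genes tested 1 rose (*Cxcl10*, log2 fold change 1.09, adjusted p = 0.00737) and 1 fell (*Tap1*, −0.95, adjusted p = 0.0446). Each is 9.09% of the list, near the 11.6% higher and 9.48% lower over all genes tested. The *Tap1* call survived the omission of control replicate 3 alone, with an adjusted p of 0.0617 to 0.144 for the other 5 libraries in turn.

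**Figure D5:**
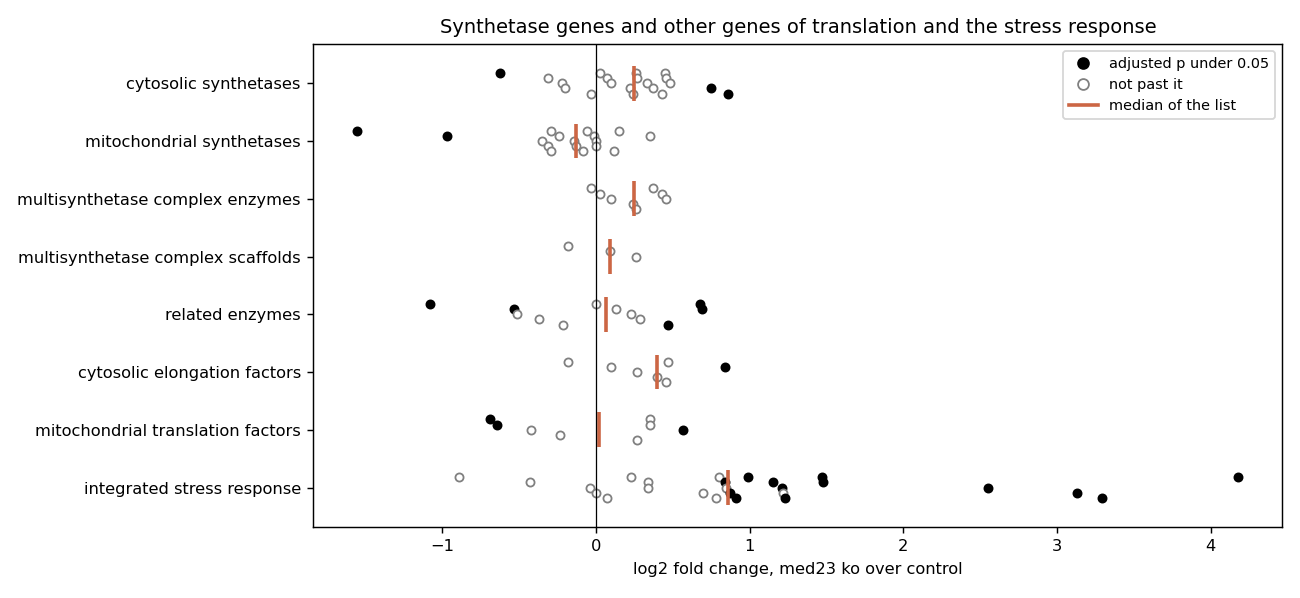
Log2 fold change of livers labelled med23 ko over controls for each gene tested, by list (filled, adjusted p under 0.05; orange line, median of the list; vertical offsets only separate points). The cytosolic synthetases (median 0.25) and the mitochondrial synthetases (median −0.13) stay mostly within 1 log2 unit of 0, and the integrated stress response reaches 4.18 with a median of 0.86.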

How the data were processed

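RNA of 6 whole livers was sequenced. The authors prepared TruSeq v2 libraries, trimmed adapters, aligned paired reads to mm10 with TopHat and ran Cuffdiff, with versions and annotation not given in the sources used here. The deposited values of the authors are FPKM per library. Their columns with group means, log2 fold changes, p-values and q-values were not used. Low FPKM gave no common step (at most 2.75% of ratios within 1% of the most frequent), so reads could not be recovered and the depth of each library is unknown.

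Values were taken as log2(FPKM + 0.1), which understates changes of low genes, for the 11956 genes averaging 0.5 FPKM or more over the libraries, and fitted with limma 3.58.1 in R 4.3.3 (eBayes with a trend, no block) with Benjamini-Hochberg adjustment over all of them. Ratios had exact two-sided permutation tests of 3 against 3 livers. Per-library values are given for members with an adjusted p under 0.05, their partners, and the 2 highest and 2 lowest of each compartment, plus a few chosen after values were seen (*Kars*, *Fars2*, *Rn45s* and ratios of subunits). In the other lists up to 4 genes past the threshold are named, with *Asns*, *Atf4* and the scaffold genes in any case and *Gatb* and *Gatc* added after values were seen. Members and lists were chosen with earlier results of these data known. 1 member and 1 sequence are not reported here by name, and that member stays in the counts and medians. Positions are from GENCODE M21 and promoters from RefSeq. Python 3.11.15, pandas 2.3.3, scipy 1.17.1 and matplotlib 3.10.9 made the remaining values and figures. Alternatives were 2 other pseudocounts, 2 other filters, 2 rescalings, 2 other eBayes settings, the replicate block, a 2-fold limit and leaving out each library.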

Additional observations from a re-analysis of the deposited data

How the results depend on the processing

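FPKM keep no depth, so counting error could not be given. Apart from the 2-fold limit, under which *Pars2* alone was called, *Gars*, *Pars2* and *Rars2* were called in the 15 alternatives, *Vars* in 14 and *Farsa* in 10. Cytosolic genes called higher numbered 1 to 4 with 1 library left out (1 without replicate 1 labelled med23 ko, 4 without control replicate 1 or 3) and 0 at more than 2-fold, and those called lower 0 to 1 and 0. Mitochondrial genes called lower numbered 2 to 3 with 1 library left out and 1 at more than 2-fold. Pathway genes outside the synthetases called higher fell from 19 to 10 at more than 2-fold and ranged from 10 to 20 with 1 library left out. Those called lower, 5 at first, numbered 2 with no filter on low values, 3 with eBayes without a trend, 1 at more than 2-fold and 1 to 7 with 1 library left out. The cytosolic median of 0.25 was 0.15 after quantile normalization and 0.22 to 0.27 with 1 library left out, and the mitochondrial median was −0.18 to −0.04. The cause of these shifts was not tested.

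Over all genes, 1384 rose and 1133 fell, against 397 and 343 without replicate 1 labelled med23 ko, 478 and 424 without replicate 2, 553 and 384 without replicate 3, 1029 and 744 without control replicate 2, 1099 and 798 without control replicate 1, and 1723 and 1420 without control replicate 3. Same-numbered libraries had correlations of their deviations from the group means of −0.022, −0.046 and −0.124. Libraries with different numbers were not compared, so whether the libraries were paired was not settled. With the replicate block, 809 genes rose and 614 fell, 0 cytosolic genes were called lower (*Farsa*, adjusted p = 0.0716, limma), and 1 pathway gene was called lower.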
